A study of Homo sapiens with 20 samples.

Results

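A set of 10 genes that mark or control the adhesive state of epithelial and mesenchymal cells was followed through induction of p53 in cultured mammary cells. They were the cadherins CDH1, CDH2 and CDH3, the epithelial adhesion molecule EPCAM, the matrix protein fibronectin (FN1), the filament protein vimentin (VIM), and the transcription factors SNAI2, TWIST1, ZEB1 and ZEB2. The genes were chosen by name and found by symbol in the platform annotation. All 10 had a transcript cluster, the set of probes for 1 transcription unit, and they make up 10 of the 18417 genes measured. Where a gene had more than 1 cluster, the cluster with the highest mean signal stood for it.

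The cells were B5/589, an immortalized human mammary epithelial line, in which a p53 transgene can be induced with doxycycline. All 20 samples carried the transgene and grew in the same EGF-supplemented serum medium, and total RNA from each was hybridised to 1 Affymetrix array. The 5 groups held 4 arrays each: 0 ng, 3 ng and 5 ng of doxycycline for 24 h, and 3 ng and 5 ng for 12 h. The labels give the doses as ng without a volume, include uninduced cells at 24 h only, name 1 line, and are silent on whether replicate arrays represent separate cultures. The p-values therefore rest on the variation among these arrays alone, part of which may be technical, and the number of arrays limits the precision.

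Epithelial cells hold to their neighbours through E-cadherin, the product of CDH1, whose tail binds catenins and through them the actin cytoskeleton. In the epithelial to mesenchymal transition this adhesion is replaced by N-cadherin (CDH2), fibronectin and vimentin, under transcription factors of the SNAI, ZEB and TWIST families that bind E-box elements and repress CDH1. Basal mammary cells also carry P-cadherin (CDH3) and SNAI2, and cultured mammary lines often show a mixture of epithelial and mesenchymal genes.

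Array medians ranged from 4.54 to 5.54 on the log2 scale, so whole arrays differed in brightness, and the brightest 2 arrays were both of 3 ng for 12 h (5.54 and 5.38). The group means of these medians at 24 h were 5.07 at 0 ng, 4.85 at 3 ng and 4.80 at 5 ng. The median change of all genes against 0 ng was -0.24 at 3 ng and -0.24 at 5 ng in the values as deposited, and 0.08 and 0.07 after quantile normalization, which gives every array the same distribution of signals. Changes are therefore given as deposited, with the quantile-normalized change beside them wherever the scaling matters. CDKN1A, the p21 gene and a direct p53 target, rose by 0.72 ± 0.14 (SE) at 3 ng (adjusted p = 0.000948) and by 1.44 ± 0.14 at 5 ng (adjusted p = 1.01e-07) against 0 ng at 24 h. Each adjusted p is limma's, with Benjamini-Hochberg adjustment over 18417 genes unless a fit over all clusters is named, and a gene was called where it was under 0.05.

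At 24 h, CDH2, EPCAM and SNAI2 were lower at both doses than in uninduced cells, by between 1.56-fold and 2.23-fold. At 5 ng CDH1 was also 1.32-fold higher (adjusted p = 0.0447) and TWIST1 1.46-fold lower (adjusted p = 0.0356). Both of these calls were weak: leaving out 1 array lost that of CDH1 for 7 of 8 arrays and that of TWIST1 for 5 of 8. In RNA from a whole culture, fewer cells of a type and less RNA per cell cannot be told apart. At 3 ng, 0 of the 10 genes rose and 3 fell, where 24.5% of all genes were called (1.5% higher and 23% lower). At 5 ng, 1 rose and 4 fell, where 28.1% of all genes were called (4.52% higher and 23.5% lower). In the deposited values, the share of the 10 genes that was called was thus close to the background at 3 ng. It was above the background at 5 ng, where the calls of CDH1 and TWIST1 were weak. Whether a share of only 10 genes differs from the background was not tested. The median change of the 10 genes was -0.46 at 3 ng and -0.46 at 5 ng, against -0.24 for all genes at each dose. After quantile normalization 3 rose (CDH1, CDH3 and FN1) and 3 fell (CDH2, EPCAM and SNAI2) at each dose, with 27.9% of all genes called at 3 ng (15.4% higher and 12.5% lower) and 37.8% at 5 ng (20.6% higher and 17.2% lower). The comparisons at 3 ng and at 5 ng share the 4 uninduced arrays, so they are not independent of each other.

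**Figure D1:**
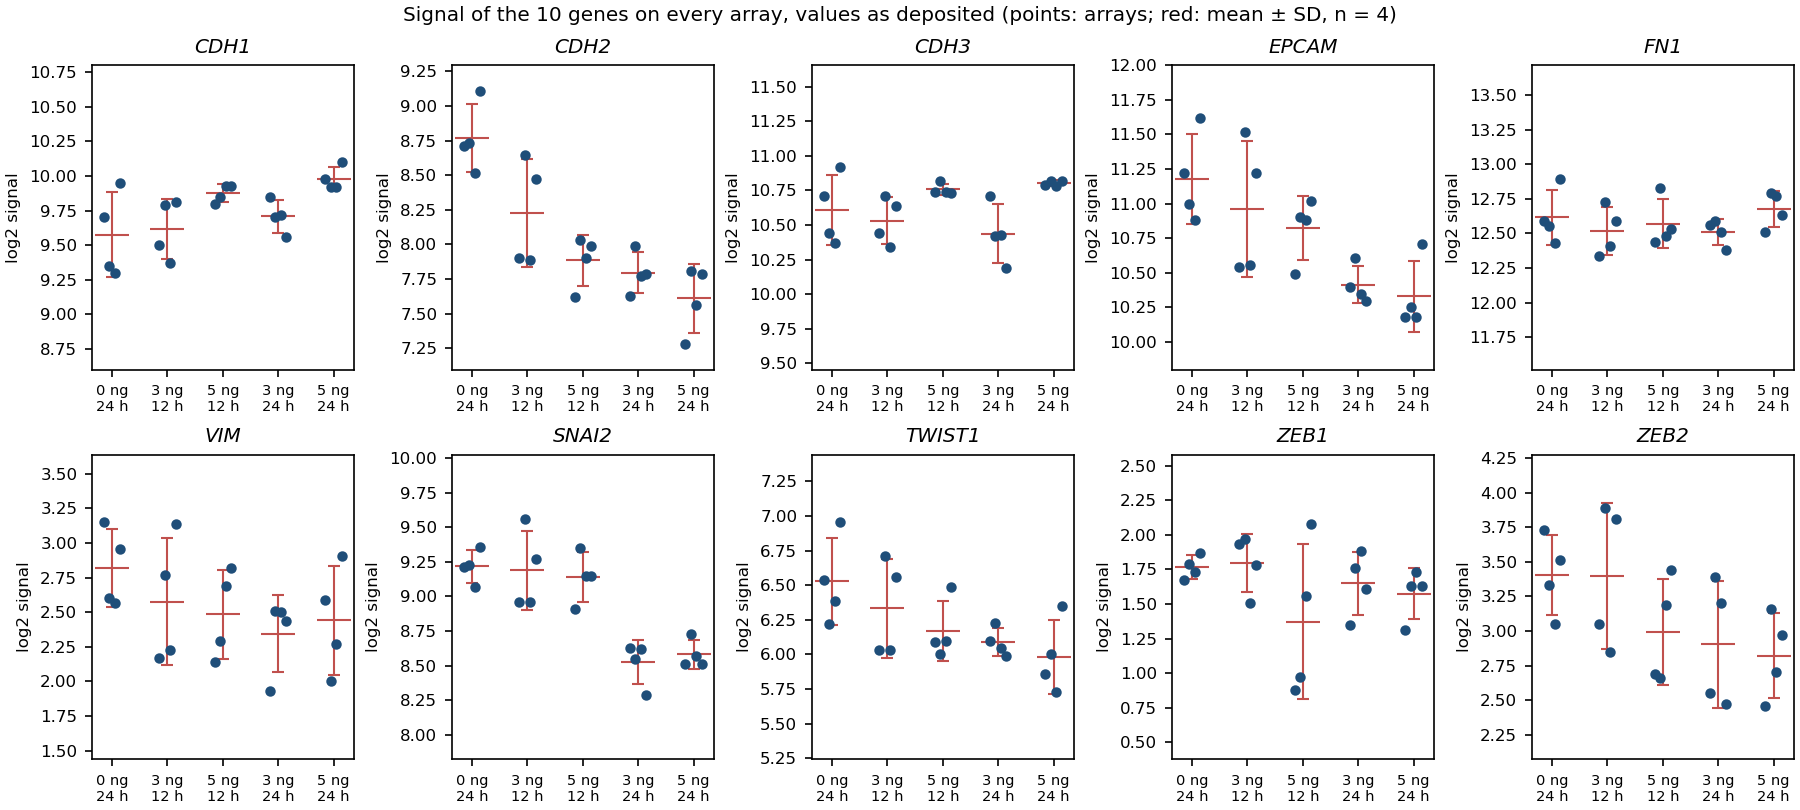
Log2 signal as deposited (vertical axis, each panel spanning the same height) of the 10 genes in the 5 groups of dose and time (horizontal axis), with a point per array and the mean ± SD in red (n = 4). CDH2, EPCAM and SNAI2 lie lower at 24 h of 3 ng or 5 ng than at 0 ng with no overlap, while FN1 and CDH3 stay close to their uninduced level.

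CDH1 encodes E-cadherin, the main cadherin of epithelial adherens junctions. Its log2 signal on the 4 arrays of each group at 24 h was 9.70, 9.35, 9.30 and 9.95 at 0 ng, then 9.85, 9.70, 9.72 and 9.56 at 3 ng, and 9.98, 9.92, 9.92 and 10.10 at 5 ng. The 4 arrays at 5 ng were tightly grouped and high, but 1 uninduced array reached into their range. CDH1 rose by 0.41 ± 0.15 (SE) at 5 ng against 0 ng (adjusted p = 0.0447), the highest adjusted p among the 5 genes called at 5 ng. At 3 ng the change was 0.13 with a 95% confidence interval from -0.17 to 0.44 (adjusted p = 0.614). After quantile normalization CDH1 rose by 0.58 ± 0.07 at 3 ng (adjusted p = 8.57e-06) and by 0.72 ± 0.07 at 5 ng (adjusted p = 2.44e-07). The call at 5 ng in the deposited values was lost when any of 7 of the 8 arrays was left out: the change was then 0.45, 0.33 or 0.31 without uninduced replicate 1, 2 or 3, and between 0.37 and 0.43 without any of the 4 arrays at 5 ng. Without uninduced replicate 4 it was 0.53 and still called. With all clusters tested, or with the fit limited to the groups compared, the adjusted p was 0.0579 and 0.0902.

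CDH2 encodes N-cadherin, the cadherin of neural and mesenchymal cells. Its log2 signal at 24 h was 8.71, 8.73, 8.52 and 9.11 at 0 ng, then 7.63, 7.99, 7.77 and 7.79 at 3 ng, and 7.28, 7.81, 7.56 and 7.79 at 5 ng. Every induced array lay well under every uninduced one, at either dose; the groups of 29.4% of all genes at 3 ng and 31.9% at 5 ng were likewise separate from the uninduced arrays. CDH2 fell by 0.97 ± 0.18 at 3 ng, a level 1.96-fold lower (adjusted p = 0.000621), and by 1.16 ± 0.18 at 5 ng, a level 2.23-fold lower (adjusted p = 5.7e-05). As deposited it was the most changed of the 10 genes at both doses. The fall was smaller but still called after quantile normalization, at -0.50 ± 0.10 for 3 ng, where CDH1 changed more (0.58), and at -0.76 ± 0.10 for 5 ng. Leaving out any array kept the call at both doses, with changes from -1.06 to -0.86 at 3 ng and from -1.24 to -1.04 at 5 ng.

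CDH3 encodes P-cadherin, a cadherin of basal epithelial cells. Its log2 signal at 24 h was 10.71, 10.44, 10.37 and 10.92 at 0 ng, then 10.71, 10.42, 10.43 and 10.19 at 3 ng, and 10.79, 10.82, 10.78 and 10.82 at 5 ng. The arrays at 5 ng were nearly equal, and they fell inside the wide uninduced range. In the deposited values CDH3 passed the test at neither dose, with -0.17 ± 0.14 at 3 ng (adjusted p = 0.453) and 0.19 ± 0.14 at 5 ng (adjusted p = 0.358). After quantile normalization it rose by 0.24 ± 0.08 at 3 ng (adjusted p = 0.0252) and by 0.47 ± 0.08 at 5 ng (adjusted p = 5.43e-05), so at 3 ng the sign of its change depended on the scaling. After centring each array on its median it also rose at 5 ng, by 0.46 (adjusted p = 0.034), while the change at 3 ng was 0.05 (adjusted p = 0.868).

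EPCAM encodes an epithelial surface glycoprotein that joins like molecules on neighbouring cells. Its log2 signal at 24 h was 11.22, 11, 10.88 and 11.62 at 0 ng, then 10.40, 10.61, 10.35 and 10.30 at 3 ng, and 10.18, 10.25, 10.18 and 10.71 at 5 ng. Induced and uninduced arrays did not overlap, although replicate 4 at 5 ng came close to the lowest uninduced array. EPCAM fell by 0.77 ± 0.21 at 3 ng, 1.70-fold lower (adjusted p = 0.0115), and by 0.85 ± 0.21 at 5 ng, 1.80-fold lower (adjusted p = 0.00424). After quantile normalization it still fell, by 0.36 ± 0.11 and 0.56 ± 0.11. The call at 3 ng was lost without uninduced replicate 4, where the change was -0.62. EPCAM has a dimmer cluster on the array, which fell by 0.74 at 3 ng and 0.95 at 5 ng in a fit over all clusters (adjusted p = 0.00689 and 0.000629). The sources used here do not say which locus each of the 2 clusters reads, so the brighter one, which stands for EPCAM in every value not named as the dimmer, may read another locus. At 5 ng both clusters fell, as the mesenchymal cadherin CDH2 did, while CDH1 rose.

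FN1 encodes fibronectin, a matrix glycoprotein bound by integrins. Its log2 signal at 24 h was 12.59, 12.55, 12.43 and 12.89 at 0 ng, then 12.56, 12.59, 12.51 and 12.38 at 3 ng, and 12.51, 12.79, 12.77 and 12.63 at 5 ng. The 3 groups lay on top of each other, and the changes were -0.11 (interval -0.39 to 0.18; adjusted p = 0.679) and 0.06 (interval -0.23 to 0.35; adjusted p = 0.797). After quantile normalization, under which the uninduced arrays spread by an SD of only 0.029, FN1 rose by 0.16 ± 0.05 at 3 ng (adjusted p = 0.0134) and 0.17 ± 0.05 at 5 ng (adjusted p = 0.00553), so its sign at 3 ng also depended on the scaling.

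VIM encodes vimentin, the intermediate filament of mesenchymal cells, and its cluster was dim in every group, from 1.93 to 3.15 over the 20 arrays. It averaged 2.82 ± 0.28 at 0 ng, 2.35 ± 0.28 at 3 ng and 2.44 ± 0.39 at 5 ng (SD, n = 4 each). VIM did not pass the test at 24 h, with -0.48 at 3 ng (adjusted p = 0.161) and -0.38 at 5 ng (adjusted p = 0.271). The 4 arrays at 3 ng lay just under the 4 uninduced ones, and the arrays of 29.4% of all genes likewise did not overlap. After quantile normalization the VIM arrays overlapped. The changes were then -0.23 at 3 ng (adjusted p = 0.214) and -0.09 at 5 ng (adjusted p = 0.662). VIM, ZEB1 and ZEB2 are the 3 genes that a filter removing the dimmest 30% of genes would take out, and such a filter leaves the other 7.

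SNAI2 encodes SLUG, a zinc-finger repressor that binds E-box elements of the CDH1 promoter and also marks basal mammary cells. Its log2 signal at 24 h was 9.21, 9.23, 9.07 and 9.36 at 0 ng, then 8.63, 8.55, 8.62 and 8.29 at 3 ng, and 8.51, 8.73, 8.57 and 8.51 at 5 ng. The uninduced arrays stood clear above all induced ones, which did not differ visibly by dose. SNAI2 fell by 0.70 ± 0.15 at 3 ng, 1.62-fold lower (adjusted p = 0.0017), and by 0.64 ± 0.15 at 5 ng, 1.56-fold lower (adjusted p = 0.00227). After quantile normalization it fell by 0.24 ± 0.07 and 0.27 ± 0.07, with some overlap between arrays. After centring each array on its median the change was -0.47 at 3 ng (adjusted p = 0.0404) and -0.37 at 5 ng (adjusted p = 0.0892), so that the call at 5 ng was lost.

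TWIST1 encodes a basic helix-loop-helix factor that promotes mesenchymal gene expression. Its log2 signal at 24 h was 6.54, 6.22, 6.39 and 6.96 at 0 ng, then 6.10, 6.23, 6.05 and 5.99 at 3 ng, and 5.86, 6.0, 5.73 and 6.35 at 5 ng. The groups overlapped at both doses. TWIST1 fell by 0.54 ± 0.19 at 5 ng (adjusted p = 0.0356), a level 1.46-fold lower, and its change at 3 ng was -0.44 (adjusted p = 0.102). This call was weak: the change after quantile normalization was -0.19 (adjusted p = 0.135), and the call was lost without uninduced replicate 1 (-0.54) or 4 (-0.40), or without replicate 1 (-0.50), 2 (-0.55) or 3 (-0.46) at 5 ng. With all clusters tested, or with the fit limited to the groups compared, the adjusted p was 0.0558 and 0.052, and after centring the change was -0.27 (adjusted p = 0.133).

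ZEB1 and ZEB2, zinc-finger and homeodomain repressors of epithelial genes, were dim throughout, from 0.88 to 2.08 for ZEB1 and from 2.46 to 3.89 for ZEB2 over the 20 arrays. ZEB1 averaged 1.77 ± 0.085 at 0 ng, 1.65 ± 0.23 at 3 ng and 1.58 ± 0.18 at 5 ng (SD, n = 4 each), and ZEB2 averaged 3.41 ± 0.29, 2.90 ± 0.46 and 2.82 ± 0.31. Neither passed the test: ZEB1 changed by -0.12 and -0.19 (adjusted p = 0.781 and 0.56), and ZEB2 by -0.50 and -0.58 (adjusted p = 0.188 and 0.112). The sign of ZEB1 depended on the scaling, with 0.14 at 3 ng and 0.12 at 5 ng after quantile normalization, neither called. ZEB2 changed by -0.27 and -0.32 after quantile normalization, neither called (adjusted p = 0.336 and 0.232). A dimmer cluster of ZEB2 was not called either, and at 3 ng it had the other sign. In a fit over all clusters it changed by 0.32 at 3 ng and -0.16 at 5 ng. At 5 ng ZEB2 passed in a fit limited to the groups compared (-0.58, adjusted p = 0.040) and with arrays weighted gene by gene (-0.69, adjusted p = 0.017).

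**Figure D2:**
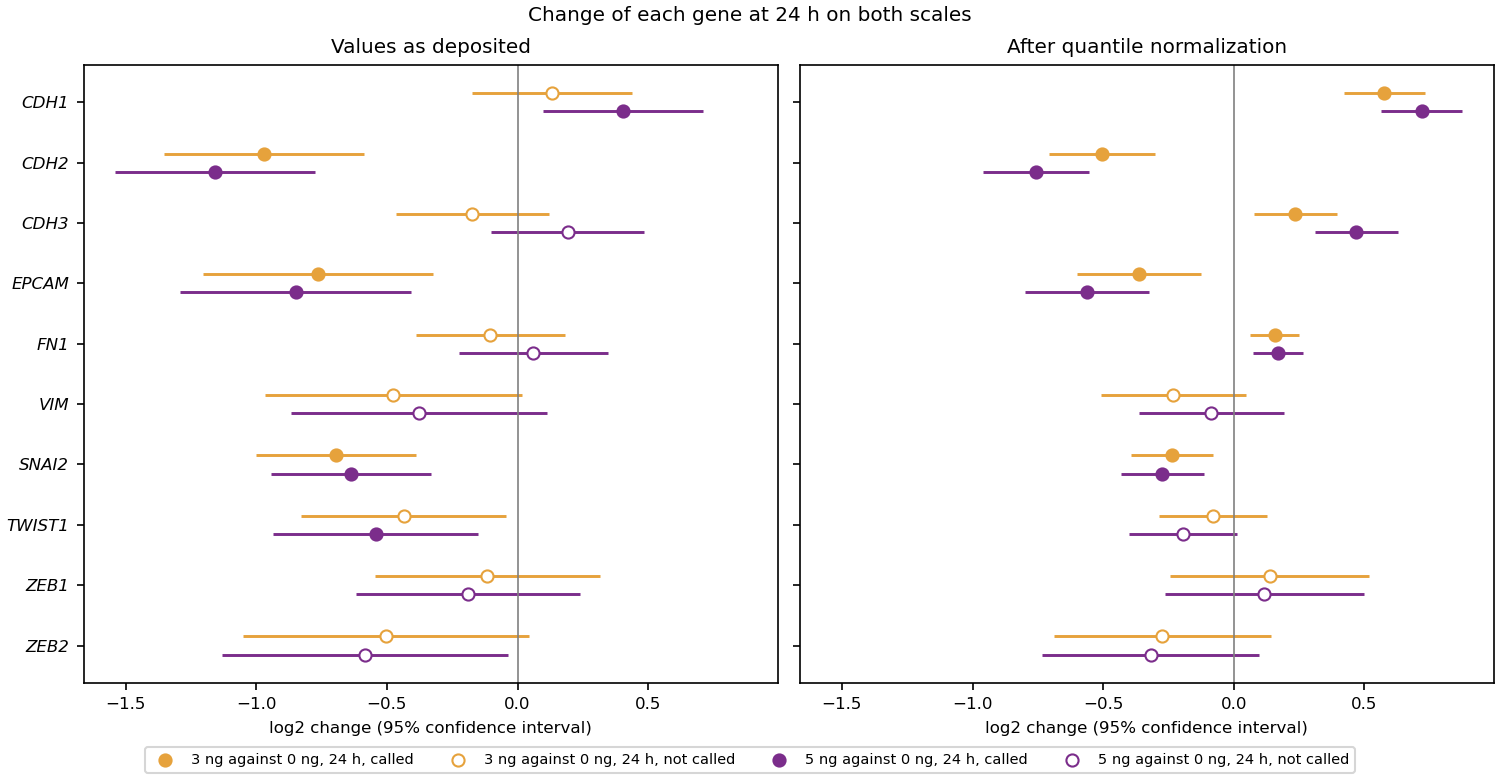
Log2 change of each gene at 24 h for 3 ng (orange) and 5 ng (purple) against 0 ng, as deposited (left) and after quantile normalization (right), with 95% confidence intervals and filled points for called genes. CDH2, EPCAM and SNAI2 are called lower in both panels. The points of all 10 genes lie farther right after normalization, where CDH1, CDH3 and FN1 are called higher at both doses.

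ZEB1 and ZEB2 messages are targets of the miR-200 family, and p53 is known to raise transcription of the miR-34a gene, whose product targets SNAI1. The mature sequences, shown here because their seeds define which family members share targets, are those of RefSeq on GRCh38.p14, with the seed (bases 2 to 8) in capitals.
hsa-miR-200a-3p: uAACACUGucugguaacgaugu
hsa-miR-141-3p: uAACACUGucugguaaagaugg
hsa-miR-200b-3p: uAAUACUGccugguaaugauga
hsa-miR-200c-3p: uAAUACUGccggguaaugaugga
hsa-miR-429: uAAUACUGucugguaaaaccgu
hsa-miR-34a-5p: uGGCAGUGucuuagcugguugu
The miR-200 family thus falls into a group with seed AACACUG and a group with seed AAUACUG, which differ at 1 position, and miR-34a shares neither. On the plus strand, miR-200b lies at chr1:1167160-1167181, miR-200a at chr1:1167916-1167937, miR-429 at chr1:1169055-1169076, miR-200c at chr12:6963742-6963764 and miR-141 at chr12:6964155-6964176. On the minus strand, miR-34a lies at chr1:9151735-9151756. The arrays measured the precursor region of these genes, not the mature microRNA. Of 10 microRNA genes listed, 8 had a named cluster, and 0 of them were called at either dose in the deposited values. At 5 ng against 0 ng the changes were 0.06 for MIR200A, 0.25 for MIR141, -0.03 for MIR200B, 0.05 for MIR200C and -0.25 for MIR429. MIR34A averaged 2.93 at 5 ng and 2.18 at 0 ng, a change of 0.75 ± 0.29 (adjusted p = 0.0649), and rose by 1.04 after quantile normalization (adjusted p = 0.00269). Both means lay under 4.14, the level that cuts off the dimmest 30% of genes, so its change is read with the same limit as those of VIM, ZEB1 and ZEB2.

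Whether the response of the 10 genes depended on dose was read from 5 ng against 3 ng at the same time. At 24 h, 0 of the 10 genes passed this test in the deposited values, after quantile normalization or after centring, where 2.54% of all genes were called as deposited, 10.4% after quantile normalization and 5.14% after centring, and CDKN1A rose by 0.72 ± 0.14 (adjusted p = 0.00554). Without adjustment, 1 of the 10 genes (CDH3) had p under 0.05 as deposited, and 2 (CDH2 and CDH3) had after quantile normalization. The arrays did not overlap for CDH1, between 9.92 and 10.10 at 5 ng and between 9.56 and 9.85 at 3 ng, or for CDH3, between 10.78 and 10.82 at 5 ng and between 10.19 and 10.71 at 3 ng, which was also so for 11.2% of all genes. The change of CDH1 was 0.27 (interval -0.03 to 0.58; adjusted p = 0.693), and that of CDH3 was 0.37 (interval 0.07 to 0.66; adjusted p = 0.309). CDH2 differed by -0.19 (interval -0.57 to 0.20), EPCAM by -0.09 (interval -0.53 to 0.36) and SNAI2 by 0.06 (interval -0.25 to 0.36), as deposited. After quantile normalization the interval of CDH2 lay under 0, at -0.25 (interval -0.45 to -0.05; adjusted p = 0.116), while EPCAM differed by -0.20 (interval -0.44 to 0.04) and SNAI2 by -0.04 (interval -0.19 to 0.12). The dimmer cluster of EPCAM fell by 0.32 at 5 ng against 3 ng after quantile normalization (adjusted p = 0.00718 over all clusters), and its change as deposited was -0.21 (adjusted p = 0.999). At 12 h, 0 of the 10 genes passed, where 0.0217% of all genes were called (2.75% after quantile normalization), and 0 had an unadjusted p under 0.05 as deposited against 3 (CDH1, CDH2 and CDH3) after quantile normalization. CDH2 differed by -0.34 there (interval -0.73 to 0.04) as deposited, and by -0.31 (interval -0.51 to -0.10; adjusted p = 0.111) after quantile normalization. The test of whether the dose difference itself changed with time called 0 of the 10 genes and 0 of all genes as deposited, 0% of those tested, and 0 of the 10 had an unadjusted p under 0.05. In a fit that weighted arrays gene by gene, CDH3 rose by 0.35 at 5 ng against 3 ng at 24 h (adjusted p = 0.0182).

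SNAI2 was lower at 24 h than at 12 h of induction at both doses. At 12 h its log2 signal was 8.96, 9.56, 8.96 and 9.27 at 3 ng and 8.91, 9.35, 9.15 and 9.15 at 5 ng, which spans the uninduced level. With no uninduced group at 12 h, length of induction and time in culture cannot be told apart when 24 h is compared with 12 h. From 12 h to 24 h SNAI2 fell by 0.67 ± 0.15 at 3 ng (adjusted p = 0.00817) and by 0.56 ± 0.15 at 5 ng (adjusted p = 0.0317). SNAI2 had no overlap between the arrays at either dose. It was the 1 gene of the 10 that fell in each of these comparisons, and 0 rose, where 4.43% of all genes were called at 3 ng (4.36% lower) and 3.97% at 5 ng (3.55% lower), and the arrays of 8.52% and 11.4% of all genes did not overlap. After quantile normalization SNAI2 fell by 0.44 ± 0.07 at each dose (adjusted p = 0.000474 at 3 ng and 0.0004 at 5 ng), where 16% and 18.4% of all genes were called. After centring it was not called, at -0.36 and -0.40. At 3 ng the adjusted p was 0.0927 in a fit limited to the groups compared. The call at 5 ng in the deposited values was lost without replicate 2 (-0.49), 3 (-0.56) or 4 (-0.56) of 12 h, or without replicate 1 (-0.54), 3 (-0.56) or 4 (-0.54) of 24 h.

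As deposited, EPCAM was intermediate at 12 h, with 10.54, 11.52, 10.56 and 11.22 at 3 ng and 10.49, 10.90, 10.88 and 11.02 at 5 ng. The arrays of 3 ng at 12 h split into a high and a low pair, and the high pair were the brightest arrays of the study. After quantile normalization EPCAM in 3 ng for 12 h stood at the uninduced level, with a change of 0.0061 (interval -0.23 to 0.24). Between 12 h and 24 h EPCAM changed by -0.55 at 3 ng (adjusted p = 0.174) and -0.49 at 5 ng (adjusted p = 0.314) as deposited, and it fell by 0.37 (adjusted p = 0.0319) and 0.42 (adjusted p = 0.0138) after quantile normalization. CDH2 at 12 h read 7.90, 8.65, 7.89 and 8.47 at 3 ng and 7.62, 8.03, 7.90 and 7.99 at 5 ng, with 24 h against 12 h differing by -0.43 (adjusted p = 0.221) and -0.28 (adjusted p = 0.678).

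The 12 h groups have no uninduced group of their own time, so against 0 ng at 24 h dose and time cannot be told apart. At 5 ng for 12 h, CDH2 fell by 0.88 ± 0.18 against 0 ng at 24 h, a level 1.84-fold lower with no overlap between arrays (adjusted p = 0.00258), and it was the 1 gene of the 10 that was called, where 14.9% of all genes were, and the arrays of 20.2% of all genes did not overlap. After quantile normalization 3 of the 10 genes were called, CDH1 and CDH3 higher and CDH2 lower, where 25.7% of all genes were. In the same comparison as deposited, SNAI2 changed by -0.08 (adjusted p = 0.803) and EPCAM by -0.36 (adjusted p = 0.296). The sign for SNAI2 depended on the scaling, with 0.17 after quantile normalization (interval 0.01 to 0.32; adjusted p = 0.121). For 3 ng at 12 h it was 0.21 on that scale (interval 0.05 to 0.36; adjusted p = 0.0741), against -0.03 as deposited. At 3 ng for 12 h, 0 of the 10 genes passed, where 2.82% of all genes were called, and 1 had an unadjusted p under 0.05. CDH2 changed by -0.54 there (adjusted p = 0.12), and it passed without replicate 2 of 3 ng at 12 h (-0.68), and fell by 0.32 after quantile normalization (adjusted p = 0.0334), where CDH1 also rose and 15.2% of all genes were called. CDH2 was thus called at 12 h of 5 ng, and SNAI2 was called at 24 h but not at 12 h, a difference between the 2 genes that was not tested. These comparisons share their uninduced arrays with those at 24 h.

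Ordered by mean level as deposited, CDH2 stood at 8.77 ± 0.25 in 0 ng, 8.23 ± 0.39 in 3 ng for 12 h, 7.89 ± 0.18 in 5 ng for 12 h, 7.80 ± 0.15 in 3 ng for 24 h and 7.61 ± 0.25 in 5 ng for 24 h (SD, n = 4 each). EPCAM had the same order, at 11.18 ± 0.33, 10.96 ± 0.49, 10.82 ± 0.23, 10.42 ± 0.14 and 10.33 ± 0.26. In neither order were neighbouring groups separate array by array. CDH1 ran the other way, at 9.58 ± 0.31 in 0 ng, 9.62 ± 0.22 in 3 ng for 12 h, 9.71 ± 0.12 in 3 ng for 24 h, 9.88 ± 0.064 in 5 ng for 12 h and 9.98 ± 0.085 in 5 ng for 24 h, again with no separate neighbours. SNAI2 stood at 9.22 ± 0.12 in 0 ng, 9.19 ± 0.29 in 3 ng for 12 h, 9.14 ± 0.18 in 5 ng for 12 h, 8.58 ± 0.10 in 5 ng for 24 h and 8.52 ± 0.16 in 3 ng for 24 h, and the arrays of the neighbours 5 ng for 12 h and 5 ng for 24 h did not overlap. These orders changed with the scaling. After quantile normalization 3 ng for 24 h and 5 ng for 12 h changed places for CDH1 and CDH2, EPCAM was level in 3 ng for 12 h and 0 ng, and SNAI2 was highest in 3 ng for 12 h. Then 3 ng for 12 h and 0 ng became separate for CDH1 and CDH2, as did 5 ng for 24 h and 3 ng for 24 h for CDH1, while SNAI2 and EPCAM had no separate neighbours. The share of all genes separate in this way after quantile normalization is not given here, so these separations are a description only.

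Because whole arrays differed in brightness, the difference between CDH1 and CDH2 on the same array was also taken. The 2 signals come from different probes, so the size of the difference has no meaning of its own and only its shift between groups can be read. At 24 h it averaged 0.81 ± 0.15 in 0 ng, 1.91 ± 0.23 in 3 ng and 2.37 ± 0.25 in 5 ng (SD, n = 4 each). At 12 h it averaged 1.99 ± 0.15 in 5 ng and 1.39 ± 0.20 in 3 ng. Every induced array stood above the uninduced ones, the lowest at 1.14 in 3 ng for 12 h, against 0.62 to 0.99 in 0 ng. The induced groups overlapped each other in part, between 1.71 and 2.22 in 3 ng for 24 h and between 1.82 and 2.18 in 5 ng for 12 h. CDH2 minus EPCAM averaged -2.41 in 0 ng, -2.62 in 3 ng and -2.72 in 5 ng at 24 h, where the groups touched or overlapped. At 12 h it averaged -2.94 in 5 ng and -2.73 in 3 ng, between -3.03 and -2.64 over both groups, and no array of either overlapped the uninduced ones, between -2.51 and -2.27. CDH2 alone was already separate from 0 ng at 24 h, as were 29.4% of all genes at 3 ng and 31.9% at 5 ng. The share of other gene pairs with separate differences was not taken, so these separations are a description only. For the 12 h arrays, dose and time cannot be told apart against 0 ng at 24 h.

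**Figure D3:**
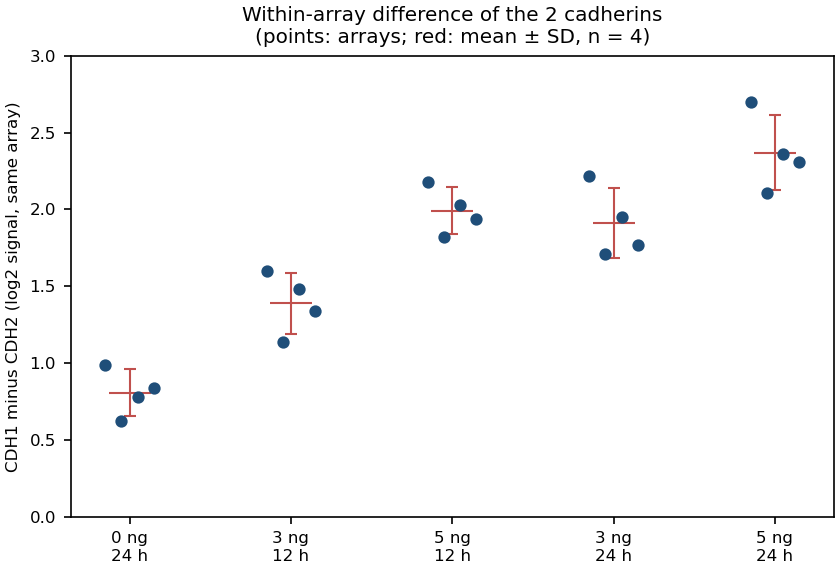
CDH1 minus CDH2 on the same array (log2 signal, vertical axis) in the 5 groups of dose and time (horizontal axis), with a point per array and the mean ± SD in red (n = 4). All 16 induced arrays stand above the 4 uninduced arrays, which lie between 0.62 and 0.99. The share of other gene pairs separate in this way was not taken.

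For each gene called at 24 h, the 3 other genes with the highest Pearson correlation over the 20 arrays as deposited are named as a description. The same names are followed after quantile normalization, where other genes ranked closest to CDH1, EPCAM and TWIST1, and in part to CDH2 and SNAI2. The arrays share groups and brightness, both of which raise such correlations. CDH2 ran closest to VKORC1L1 (r = 0.985), PM20D2 (0.984) and PSMG1 (0.979), and these stayed at 0.951, 0.952 and 0.937 after quantile normalization. SNAI2 ran closest to WLS (0.981), SNAPC1 (0.974) and REXO5 (0.973), with 0.915, 0.891 and 0.813 after normalization. EPCAM ran closest to VBP1 (0.983), GTF2A2 (0.982) and SNRPG (0.980), with 0.907, 0.927 and 0.927. CDH1 ran closest to STX12, LONP2 and LIPG, all at 0.951, with 0.959, 0.956 and 0.950. TWIST1 ran closest to CENPX (0.939), PRPF40B (0.936) and ETFB (0.931), which dropped to 0.537, 0.738 and 0.639. Among the 10 genes, EPCAM and CDH2 correlated at 0.893 over the 20 arrays as deposited and at 0.677 after normalization, and CDH1 and CDH2 at -0.288 and -0.921.

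The wider adhesion programme was read from 10 companion lists holding 189 other genes, of which 170 had a named cluster. Called shares at 5 ng against 0 ng are to be read against the 28.1% of all genes called as deposited (4.52% higher and 23.5% lower) and the 37.8% called after quantile normalization (20.6% higher and 17.2% lower). Of 14 desmosome genes, 4 rose and 0 fell at 5 ng against 0 ng at 24 h as deposited, with a list median of 0.14, and 8 rose and 0 fell after quantile normalization, with a median of 0.45. DSG3, a desmosomal cadherin, rose by 1.77 ± 0.17 (adjusted p = 5.41e-08), and PKP1, a plaque protein, by 0.96 ± 0.13. DSC3, another desmosomal cadherin, rose by 0.82, and PERP, a desmosomal p53 target, by 0.72. All 4 also rose between 3 ng and 5 ng at 24 h, DSG3 by 0.74 (adjusted p = 0.0167) and PKP1 by 0.65 (adjusted p = 0.00559), a comparison in which 2.54% of all genes and 0 of the 10 adhesion genes were called. At 3 ng, DSG3 alone of the list was called, at 1.04.

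Of 18 adherens junction genes measured, 2 rose and 6 fell at 5 ng, with a median of -0.35, and 4 rose and 4 fell after quantile normalization. CTNNAL1, an alpha-catenin-like protein, fell by 2.24 ± 0.19 (adjusted p = 7.85e-09) and the adhesion molecule NECTIN4 rose by 1.65 ± 0.17 (adjusted p = 1.89e-07). NECTIN3 fell by 0.93, and CDH11, a mesenchymal cadherin, fell by 0.88. Of 18 tight junction and polarity genes, CLDN7 rose by 0.54 and CLDN1 fell by 0.69, both being claudins that seal the space between cells, and 10 rose and 1 fell after quantile normalization. The call of CLDN7 was lost without any of uninduced replicates 1 (0.59), 2 (0.43) and 3 (0.51) or any of replicates 1 (0.54), 2 (0.58), 3 (0.55) and 4 (0.51) at 5 ng, and with all clusters tested (adjusted p = 0.0643).

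Of 18 epithelial regulators, 3 rose and 4 fell at 5 ng as deposited, with a median of 0.07, and 12 rose and 2 fell after quantile normalization. GRHL3, a factor of epidermal barrier formation, rose by 1.17 ± 0.17 (adjusted p = 2.34e-05), and OVOL1, which represses mesenchymal genes, rose by 0.64. KLF4 fell by 0.82, and OVOL2 fell by 0.59, a call that was lost after quantile normalization (-0.24) and without uninduced replicate 1 (-0.54) or 4 (-0.52).

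Among 14 mesenchymal transcription factors, 0 rose and 2 fell at 5 ng: TWIST2 by 0.65 and TCF3 by 0.62, the fall of TCF3 being lost after quantile normalization. Of 15 genes of the mesenchymal cytoskeleton and surface, 1 rose and 4 fell, with CNN2 down by 0.70, the receptor kinase AXL by 0.64, TPM2 by 0.62, and PALLD up by 0.49. The call of PALLD was lost without uninduced replicate 1 (0.48), 2 (0.41) or 3 (0.46) or without replicate 2 (0.50), 3 (0.51) or 4 (0.41) at 5 ng. After quantile normalization the counts were 4 up and 1 down for the factors and 3 up and 3 down for the cytoskeleton.

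In 31 matrix genes, 3 rose and 8 fell at 5 ng, with a median of -0.28, and 6 rose and 7 fell after quantile normalization. VCAN, the matrix proteoglycan versican, had the largest rise of all companions at 2.67 ± 0.18 (adjusted p = 1.83e-10), while COL8A1 fell by 1.32, tenascin C (TNC) by 1.14 and COL4A2 by 1.03. Of 17 receptors for fibronectin and other matrix proteins, 1 rose and 3 fell (3 and 1 after quantile normalization). ITGB8 rose by 0.57 and ITGB5 fell by 0.80, whereas the falls of ITGB4 (-0.55) and ITGA5 (-0.47), the alpha chain of the main fibronectin receptor, were lost after quantile normalization (-0.22 and -0.11). Of 17 genes of the TGF-beta pathway, an inducer of the epithelial to mesenchymal transition, 1 rose and 4 fell (8 and 3 after quantile normalization). The receptor chain TGFBR2 fell by 0.96 ± 0.14 (adjusted p = 2.99e-05) and TGFBR1 rose by 0.83 ± 0.16 (adjusted p = 0.000423), with SMAD4 down by 0.74 and SMAD2 by 0.57. Centring each array on its median ended the calls of CNN2 (-0.43), AXL (-0.37), TPM2 (-0.35), TCF3 (-0.35), OVOL2 (-0.32), SMAD2 (-0.30), ITGB4 (-0.28) and ITGA5 (-0.20).

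At 3 ng against 0 ng at 24 h as deposited, 24.5% of all genes were called (1.5% higher and 23% lower), so falls outnumbered rises over all genes too. There 1 adherens junction gene rose and 5 fell, 1 desmosome gene rose and 0 fell, and 0 tight junction genes rose and 1 fell. Of the epithelial regulators 1 rose and 3 fell, of the mesenchymal factors 0 rose and 3 fell, and of the mesenchymal cytoskeleton 0 rose and 5 fell. Of the matrix genes 1 rose and 8 fell, and of the matrix receptors and the TGF-beta pathway 0 rose and 4 fell in each. After quantile normalization, with 27.9% of all genes called (15.4% higher and 12.5% lower), 8 desmosome genes, 10 tight junction genes and 8 epithelial regulators rose and 0 fell in these 3 lists. In the other lists named, falls then no longer outnumbered rises. Among adherens junction genes 3 rose and 2 fell, among mesenchymal factors 2 and 1, and in the cytoskeleton 2 and 2. In the matrix 6 rose and 6 fell, among matrix receptors 3 and 2, and in the TGF-beta pathway 5 and 2. VCAN rose by 1.46 ± 0.18 at 3 ng and CTNNAL1 fell by 1.53 ± 0.19, and both also passed the test between 5 ng and 3 ng at 24 h, at 1.21 and -0.71.

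**Figure D4:**
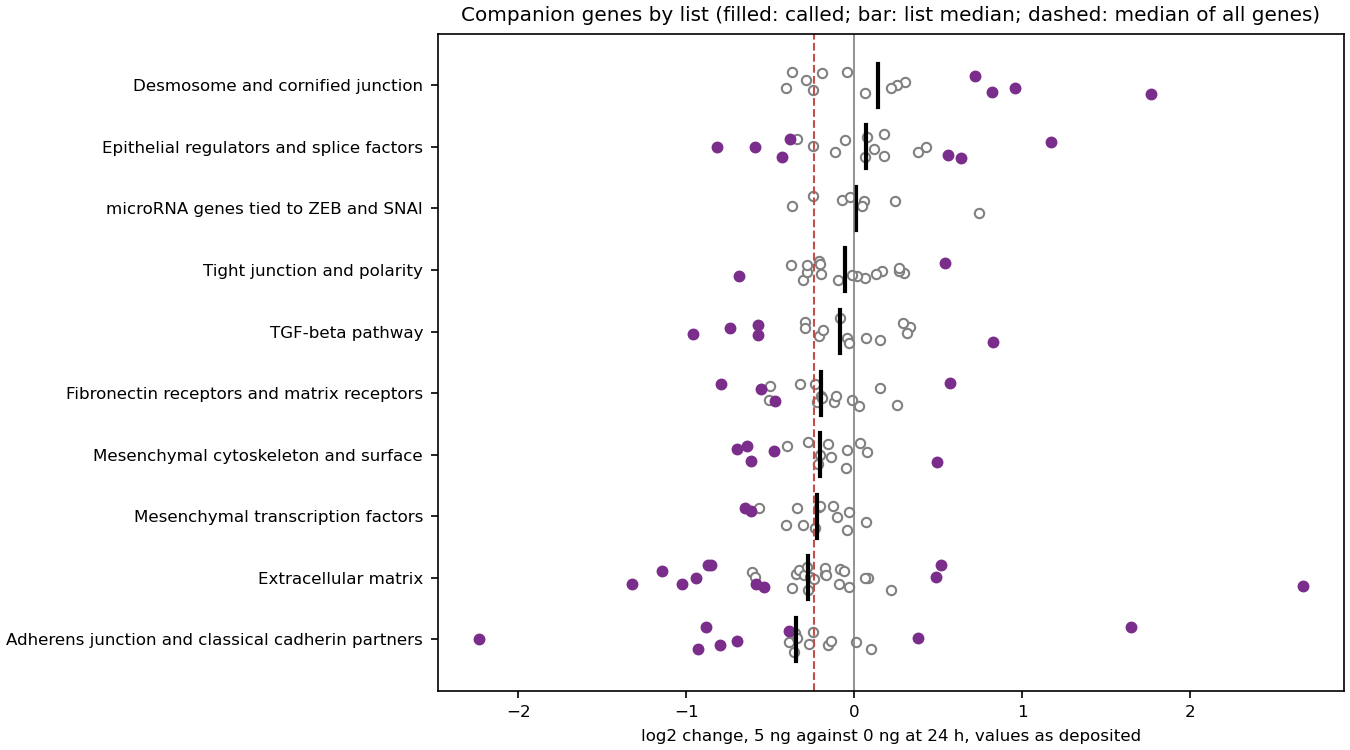
Log2 change at 5 ng against 0 ng at 24 h (horizontal axis, as deposited) of the measured genes of the 10 companion lists (vertical axis), filled where called, with the list median as a black bar and the median of all genes, -0.24, as a dashed line. The desmosome list has 4 called genes, all to the right of 0, while VCAN at 2.67 and CTNNAL1 at -2.24 lie farthest out.

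Cell type markers were read beside these results, against the same shares of all genes called at 5 ng. These were 28.1% as deposited (4.52% higher and 23.5% lower) and 37.8% after quantile normalization (20.6% higher and 17.2% lower). The 8 measured basal mammary markers averaged 9.81 at 5 ng and 9.49 at 0 ng for 24 h, all above the level of the dimmest 30% of genes, and 5 rose and 1 fell at 5 ng: MYLK by 1.18, ACTA2 by 0.85, KRT5 by 0.66, KRT14 by 0.56 and LAMB3 by 0.52 were up, and ITGB4 was down. After quantile normalization the same 5 rose and 0 fell. The 10 luminal markers averaged 5.12 at 5 ng and 5.19 at 0 ng, with 5 of them, including ESR1 and PGR, among the dimmest genes, while KRT8 averaged 12.58 and KRT18 12.66 over the 20 arrays. KRT8 alone of them rose as deposited, by 0.53, and KRT8, KRT18, KRT19 and GATA3 rose after quantile normalization. Of 10 fibroblast markers, 0 were called, and their mean was 3.34 at 5 ng and 3.53 at 0 ng, with DCN and LUM near or under 0. Endothelial markers averaged 2.79 at 5 ng and 3.10 at 0 ng, and immune markers 3.41 at 5 ng and 3.96 at 0 ng, with PTPRC below 0. In these lists KDR fell by 0.59 and CD14 by 1.43 as deposited, and after quantile normalization VWF and CD68 rose and CD14 fell. The line thus carried basal markers and the luminal keratins KRT8 and KRT18, and the part of the shift in basal markers in the values of CDH1, CDH2 and SNAI2 was not tested.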

How the data were processed

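Total RNA from 20 samples was measured on Affymetrix arrays. The deposited values are log2 signals, 1 per transcript cluster and array. The submitters' processing notes name limma, GCRMA, GCOS and Affymetrix Power Tools, with no version or role for any of them, and the sources used here do not say how arrays were scaled. Of 33297 clusters, 19460 had 1 gene symbol in the platform annotation, 1754 had several and 12083 were not listed. Genes were named from clusters with 1 symbol, and the brightest of several clusters stood for each of 769 genes, which left 18417 genes.

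All 20 arrays entered 1 linear model with a mean per group (limma 3.58.1, R 4.3.3, 15 residual degrees of freedom), with moderated standard errors (eBayes) and two-sided tests. A gene was called where its p, adjusted by Benjamini-Hochberg over 18417 genes, was under 0.05. The fit was tested on simulated data. The 10 genes and the companion lists were chosen with earlier results of these data known. All 10 genes are named, with up to 4 called genes of largest change at 5 ng per companion list, and the 3 genes closest to each called gene by Pearson correlation. Basal and other cell type markers are described from fixed lists. Quantile normalization, median centring, a filter on dim genes, cluster choice, fits to fewer samples, array weights, a replicate block and leaving out arrays were tried. MicroRNA sequences are RefSeq's, on GRCh38.p14.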

Additional observations from a re-analysis of the deposited data

Results flagged for a closer look

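Within each group of 4 arrays, the array farthest from its neighbour was compared with the whole range of the group. Over the 10 genes this gave 50 groups on each scale and 100 in all, of which 7 had an array whose gap passed Dixon's critical value of 0.829 (chance gives about 1 in 20). In the deposited values, CDH3 had a high array in 5 ng for 12 h, replicate 2, with a gap of 0.889 of the range, within a group that spanned only 10.73 to 10.82. EPCAM had a high array in 5 ng for 24 h, replicate 4, with a gap of 0.868, and the same array stood out after quantile normalization at 0.87. That array, at 10.71, is the one nearest to the uninduced arrays. VIM had a low array in 3 ng for 24 h, replicate 1, at 0.879. After quantile normalization, CDH3 in 5 ng for 24 h, replicate 1, reached 0.841, FN1 in 5 ng for 12 h, replicate 2, reached 0.89, and TWIST1 in 3 ng for 12 h, replicate 1, reached 0.912.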

How the results depend on the processing

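Of the 10 genes, the count called was 3 at 3 ng against 0 ng at 24 h, 5 at 5 ng against 0 ng, 0 for both comparisons of 5 ng with 3 ng, 1 for 24 h against 12 h at each dose, 0 for 3 ng and 1 for 5 ng at 12 h against 0 ng, and 0 for the interaction. Under quantile normalization these became 6, 6, 0, 0, 3 and 2 for time at 3 ng and 5 ng, 2 and 3 for the 12 h groups, and 0. Under centring, the count at 5 ng against 0 ng became 4, with CDH1 and CDH3 higher and CDH2 and EPCAM lower, the time counts 0 and 0, and the 12 h counts 1 and 2. With all clusters tested, the count at 5 ng against 0 ng was 3. With only the groups compared, the count for time at 3 ng was 0. With trend and robust options, or with a replicate block, the count for 3 ng at 12 h was 1. Array weights by REML did not converge (weights from 0.105 to 20.2) and gave 1 and 6 for dose at 24 h and 12 h, 5 for time at 5 ng, and 5 and 2 for the 12 h groups. Gene-by-gene weights, chosen after seeing the data like the dimmer clusters of EPCAM and ZEB2, gave 1 for dose at 24 h, 3 for time at 5 ng, and 1 and 2 for the 12 h groups. Leaving out each array in turn gave 2 to 3 at 3 ng, 3 to 4 at 5 ng, 0 to 0 for both dose comparisons, 1 to 1 and 0 to 1 for time, 0 to 1 and 1 to 2 for the 12 h groups, and 0 to 0 for the interaction. The sign turned with a call for CDH3 (0.24) and FN1 (0.16) at 3 ng under quantile normalization, and for EPCAM (0.31), SNAI2 (0.17) and VIM (0.47) at 5 ng against 3 ng at 12 h under the REML weights. At 3 ng it also turned, without a call, for ZEB1 under quantile normalization (0.14) and for CDH3 (0.05), ZEB1 (0.11) and FN1 (0.12) under centring. Over the 10 genes and all comparisons, 24 of 90 changes had another sign under quantile normalization than as deposited, and 24 of 90 had under centring. The cause was not tested.

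To look for pairing, each array was taken as the deviation of every gene from its group mean. Between groups, these deviations correlated from -0.18 to 0.50 over 32 pairs of arrays with the same replicate number, 8 of them over 0.1. They are not correlations of the signals themselves. Since not every pair was over 0.1 and the labels do not say that a number marks a shared culture or day, the samples were not taken as paired. Of the 32, 16 correlated best with their own number among the 4 arrays of the other group, and 31 correlated above 0 after quantile normalization. CDH1 minus CDH2 on the same array was also highest in replicate 1 and lowest in replicate 2 in each of the 5 groups. These are hints from the data, not the design, that numbers share some structure. With the replicate block, the counts were otherwise 3, 5, 0, 0, 1, 1, 1 and 0 in the order above. Low signal limits the reading of VIM, ZEB1, ZEB2 and MIR34A.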

Other observations

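CDH1 minus CDH2 on the same array was highest in replicate 1 and lowest in replicate 2 in each of the 5 groups. CDH1 minus EPCAM on the same array averaged -1.61 in 0 ng, -0.71 in 3 ng and -0.35 in 5 ng for 24 h (n = 4 each), with the 2 induced groups overlapping each other and neither overlapping the uninduced arrays, which lay between -1.67 and -1.52. The share of other gene pairs separate in this way was not taken, and EPCAM was read from its brighter cluster, which may read another locus.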
